A study of Mus musculus with 2 samples.

Results

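The 9 genes described here, Acta2, Tagln, Myl9, Cnn1, Tpm1, Tpm2, Cald1, Fhl1 and Myh11, are genes of the contractile and actin cytoskeleton, taken by symbol from the 56694 genes in the count tables. The 9 were selected on their UMIs in these same libraries, after earlier results had shown them in some keratinocytes, so their levels in keratinocytes are a description and not a test. The data are 2 single-cell libraries from epidermal whole mounts of the back skin of mice at postnatal day 2, 1 from control mice and 1 from Gli2 EKO mice, in which a K14Cre transgene deletes a floxed Gli2 gene (Gli2 flox) in keratinocytes on a C57Bl/6N background. The label of the control library gives its genotype as WT, whereas the methods of the study describe controls as floxed littermates without Cre, and the number of mice behind each library is not given in the sources used here. Skin pieces were digested with collagenase, the loosened dermis was rinsed off and the epidermis was dissociated with trypsin, so the fibroblasts and mural cells in these libraries are dermal cells that stayed on the sheet.

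Actin and myosin filaments slide past each other to contract a cell. Smooth muscle and the mural cells that wrap small vessels build this machinery from dedicated forms of each protein, and fibroblasts of the hair follicle's dermal sheath form a contractile sleeve around the follicle. Epithelial cells contract mainly with non-muscle myosin, and some epithelia, such as the basal cells of glands, switch on smooth muscle genes while keeping their keratins. Transcription of many of these genes is driven by serum response factor (SRF) and its cofactors, which bind a DNA element called the CArG box.

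Each gene's position is given in the GRCm39 assembly with its GENCODE annotation. Acta2 encodes smooth muscle alpha-actin (ENSMUSG00000035783, chr19:34217737-34232990, minus strand). Tagln encodes transgelin, an actin-binding protein (ENSMUSG00000032085, chr9:45840909-45847404, minus strand). Myl9 encodes a regulatory light chain of myosin (ENSMUSG00000067818, chr2:156617084-156623579, plus strand), and Myh11 the smooth muscle myosin heavy chain (ENSMUSG00000018830, chr16:14012399-14109236, minus strand). Cnn1 encodes calponin (ENSMUSG00000001349, chr9:22010512-22020926, plus strand) and Cald1 caldesmon (ENSMUSG00000029761, chr6:34575435-34752408, plus strand), both of which restrain actomyosin. Tpm1 (ENSMUSG00000032366, chr9:66929870-66956953, minus strand) and Tpm2 (ENSMUSG00000028464, chr4:43514697-43524949, minus strand) encode tropomyosins, which lie along actin filaments and are made as muscle and non-muscle isoforms that this 3′ assay was not used to separate. Fhl1 encodes a LIM domain protein of muscle (ENSMUSG00000023092, chrX:55777147-55838706, plus strand). Genes on the opposite strand overlap several of them, among them Stambpl1 at Acta2, Pcsk7 at Tagln and Elof1 at Cnn1.

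The promoters of 7 of the 9 genes were found in RefSeq's table (GRCm38.p6), and those of Tagln and Myh11 were not used here. Below are the 250 bases before the start of 3 genes that hold a CArG box and of Tpm1, which holds none by this search, each read 5′ to 3′ on the gene's strand. Capitals mark the CArG box, searched on both strands in its exact form or with 1 G or C inside its core of 6 A or T bases. The windows are chr19:34255374-34255623 for Acta2, chr2:156775214-156775463 for Myl9, chrX:56779433-56779682 for 1 of the 2 starts of Fhl1, and chr9:67049214-67049463 for Tpm1.
Acta2: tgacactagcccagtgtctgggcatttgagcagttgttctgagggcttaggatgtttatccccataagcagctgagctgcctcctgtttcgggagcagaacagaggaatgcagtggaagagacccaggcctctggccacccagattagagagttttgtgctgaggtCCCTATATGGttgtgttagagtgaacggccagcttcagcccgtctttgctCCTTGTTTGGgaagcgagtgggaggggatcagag
Myl9: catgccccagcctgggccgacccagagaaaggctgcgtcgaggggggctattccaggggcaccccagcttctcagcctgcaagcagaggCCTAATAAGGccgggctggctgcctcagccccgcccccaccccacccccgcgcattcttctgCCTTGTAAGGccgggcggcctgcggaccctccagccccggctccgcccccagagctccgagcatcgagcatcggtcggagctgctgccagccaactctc
Fhl1: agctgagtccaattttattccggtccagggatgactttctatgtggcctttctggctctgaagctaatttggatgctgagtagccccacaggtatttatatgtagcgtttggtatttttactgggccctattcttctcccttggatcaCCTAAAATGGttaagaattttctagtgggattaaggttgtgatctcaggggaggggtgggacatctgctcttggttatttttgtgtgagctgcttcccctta
Tpm1: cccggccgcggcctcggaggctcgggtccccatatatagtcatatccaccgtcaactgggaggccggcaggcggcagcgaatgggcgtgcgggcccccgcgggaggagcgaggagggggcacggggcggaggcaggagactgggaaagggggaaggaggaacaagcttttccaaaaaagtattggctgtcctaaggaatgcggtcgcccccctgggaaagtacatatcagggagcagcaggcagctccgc

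Acta2 held 2 boxes with 1 G or C in the core, 84 and 34 bases before the start. Myl9 held an exact box 161 bases before its start and 1 with a G or C 99 bases before it. The box of Fhl1, 102 bases before the start, was exact. Fhl1 and Cald1 have 2 starts each, and a box of either kind lay in 3 of the 9 windows of these 7 genes, and in 8.59% of all 32841 windows of this length in the table. Cnn1, Tpm2 and Cald1 had no match. A match is a string of letters and was not tested for binding.

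The control library held 6326 barcodes and 71021773 unique molecular identifiers (UMIs, counted cDNA molecules), and the Gli2 EKO library 4296 barcodes and 48866478 UMIs. The libraries shared 0 barcodes. After limits on genes, mitochondrial UMIs and doublets, 7549 cells remained, which were clustered without using the 9 genes and named by their markers. Keratinocytes here are the 2360 control and 1935 Gli2 EKO cells of keratinocyte-like clusters with at least 10 Krt5 and Krt14 UMIs per 10000. They are compared with 848 and 647 fibroblast-like cells, 26 and 20 mural-like cells, and 115 and 45 immune- and endothelial-like cells, which should lack most of these genes. The classes were named from these markers, so their marker levels are a description. The summed fibroblast list stood at 28358 and 25462 CPM (UMIs per 1000000 UMIs of the class) in fibroblast-like cells against 2329 and 2811 CPM in mural-like cells and 356 and 272 CPM in keratinocytes (control first here and below), and the summed mural list stood at 9467 and 7699 CPM in mural-like cells against 77.2 and 58.4 CPM in keratinocytes. Each genotype is 1 library, so the genotype and the library cannot be told apart and no test between them was made. The 95% intervals cover counting error only. Gli2 itself stood at 83.5 and 88.5 CPM in keratinocytes, which checks nothing, because the assay reads the 3′ end and the deleted exons are not stated in the sources used here.

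Keratinocytes carried UMIs of all 9 genes, at least 4-fold below mural-like cells for 8 of them and below fibroblast-like cells by as much for Acta2. Acta2 stood at 146 CPM (95% interval 142 to 150, 4891 UMIs) in control keratinocytes, 1034 CPM in fibroblast-like cells and 3631 CPM in mural-like cells. In the Gli2 EKO library these levels were 92.5, 684 and 5697 CPM. Keratinocytes therefore held 7.07-fold and 7.39-fold less Acta2 than fibroblast-like cells. Immune- and endothelial-like cells, with 5.81 and 7.42 CPM, were lower still.

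Tagln was closer between the layers. It stood at 330 and 232 CPM in keratinocytes and at 518 and 486 CPM in fibroblast-like cells, a log2 difference of -0.65 and -1.07, while mural-like cells held 2057 and 3759 CPM. Myl9 stood at 131 and 88.7 CPM in keratinocytes, 410 and 407 CPM in fibroblast-like cells and 2024 and 3096 CPM in mural-like cells. These 3 genes were at most 16.6 CPM in immune- and endothelial-like cells of either library.

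Tpm1 and Cald1 were found in every class compared here. Tpm1 stood at 938 and 693 CPM in keratinocytes, 1450 and 1023 CPM in fibroblast-like cells and 4412 and 5587 CPM in mural-like cells. Cald1 followed the same order, with 762 and 511 CPM in keratinocytes, 1094 and 1072 CPM in fibroblast-like cells and 3618 and 4359 CPM in mural-like cells. Immune- and endothelial-like cells also held Tpm1, at 159 and 102 CPM, and Cald1, at 115 and 70.5 CPM, so UMIs of these genes mark no cell type by themselves. Most of that Cald1 lay in the 23 and 8 endothelial-like cells, at 423 and 416 CPM, against 24.7 and 6.60 CPM in immune-like cells. Tpm2 stood at 169 and 156 CPM in keratinocytes, 309 and 325 CPM in fibroblast-like cells and 10.8 and 18.6 CPM in immune- and endothelial-like cells.

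Cnn1, Fhl1 and Myh11 separated from the rest. Cnn1 was low in both layers, with 6.79 CPM (227 UMIs) and 4.89 CPM (139 UMIs) in keratinocytes and 3.73 and 3.60 CPM in fibroblast-like cells, the last from 24 UMIs. Its log2 difference was 0.86 (0.36 to 1.41) in the control library and 0.44 (-0.19 to 1.13) in the Gli2 EKO library, where the counts do not set the direction. Fhl1 stood at 40.4 CPM in control keratinocytes and 42.1 CPM in control fibroblast-like cells, whose intervals overlapped, and at 30.6 and 50.4 CPM in the Gli2 EKO library. In mural-like cells it stood at 45.9 and 87.3 CPM, from 14 and 15 UMIs. Myh11 was a mural gene here. It stood at 3894 and 3666 CPM in mural-like cells, at 4.84 and 3.15 CPM in fibroblast-like cells and at 0.777 and 2.22 CPM in keratinocytes, from 26 and 63 UMIs. Of the 63, 43 came from 1 cell, described with the genotypes.

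Read against all genes, 1 of the 9 members, Acta2, was at least 4-fold lower in keratinocytes than in fibroblast-like cells in both libraries, where 9.56% of 13828 genes were. Against mural-like cells 8 of the 9 were, all but Fhl1, where 4.44% of 12623 genes were. The mural-like values rest on 26 and 20 cells.

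**Figure D1:**
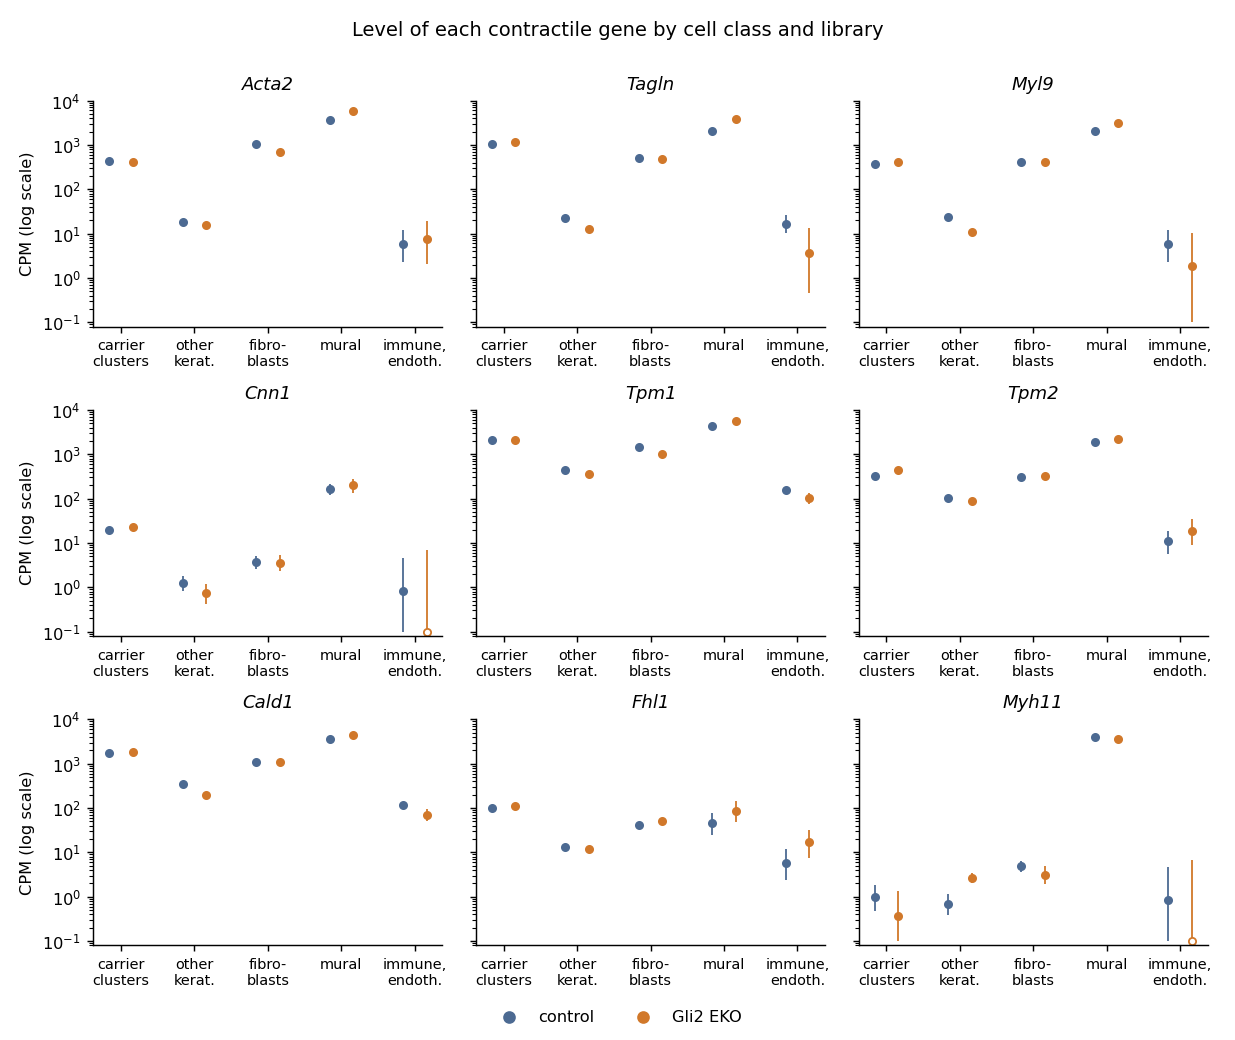
CPM of the 9 genes on a log axis, 1 panel per gene, in 5 sets of cells of each library, with exact 95% counting intervals as bars and open points drawn at 0.1 where no UMI was found. Keratinocytes are divided into the 3 clusters in which most cells carried several of the genes and all others. The 3 clusters reach or pass the fibroblast-like cells for Tagln, Cnn1, Tpm1, Cald1 and Fhl1, and mural-like cells stand highest for all genes but Fhl1.

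The share of cells with a UMI was compared after each cell was thinned to 5000 UMIs. Acta2 was found in 15.5% and 10.8% of keratinocytes, 31.3% and 24.7% of fibroblast-like cells, and 4.44% and 2.50% of immune- and endothelial-like cells, the last being 4 of 90 and 1 of 40 cells. Without thinning it was found in 21.9% and 14.6% of keratinocytes. Tagln was found in 18.6% and 13.0% of keratinocytes, against 2.22% and 2.50% of immune- and endothelial-like cells. Myl9 was found in 25.5% and 18.2% of keratinocytes and in 54.2% and 59.5% of fibroblast-like cells. Tpm1 was found in 64.2% and 63.0% of keratinocytes, but also in 57.8% and 32.5% of immune- and endothelial-like cells. Myh11 was found in 9 of 2213 and 4 of 1832 keratinocytes and in 25 of 26 and 16 of 19 mural-like cells. In immune- and endothelial-like cells it was found in 1 of 90 and 0 of 40 cells, the latter allowing a share of up to 7.50%, so the 0.407% and 0.218% of keratinocytes cannot be set apart from background at these cell numbers.

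The UMIs were concentrated in few keratinocytes. The 236 control and 194 Gli2 EKO keratinocytes with the highest levels of a gene held 92.4% and 96.6% of all keratinocyte Acta2 UMIs and over 90% of those of Tagln. For Tpm1 as many cells held 54.4% and 56.1%, and for Cald1 41.6% and 51.0%. Acta2 and Tagln are thus genes of a minority of keratinocytes, and Tpm1 and Cald1 are spread more evenly.

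The same cells tended to hold several of the genes. Among keratinocytes with an Acta2 UMI at 5000 UMIs (344 and 197 cells), 70.9% and 64.5% also held Tagln, against 8.99% and 6.85% of those without. Myl9 was held by 71.8% and 68.5% of the cells with Acta2 and by 17.0% and 12.1% of those without. Myh11 was held by 1 of 344 and 1 of 197 cells with Acta2 and by 8 of 1869 and 3 of 1635 cells without. These are too few cells to show whether Myh11 goes with Acta2 in keratinocytes. Both Acta2 and Tagln were found in 244 of 2213 control keratinocytes (11.0%, 9.75 to 12.4%) and in 127 of 1832 Gli2 EKO keratinocytes (6.93%, 5.81 to 8.19%). The share was 24.0% and 20.2% in fibroblast-like cells. It was 0 of 90 and 0 of 40 in immune- and endothelial-like cells, which allows a share of up to 3.33% and 7.50%. Without thinning, 13.9% and 8.22% of keratinocytes held both.

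Keratinocytes with UMIs of at least 4 of the 9 genes at 5000 UMIs, called carriers here, numbered 584 of 2213 in the control library (26.4%, 24.6 to 28.3%) and 340 of 1832 in the Gli2 EKO library (18.6%, 16.8 to 20.4%). Without thinning the shares were 39.4% and 28.5%. For comparison, 54.1% and 57.7% of fibroblast-like cells reached 4 genes, as did 26 of 26 and 19 of 19 mural-like cells and 2 of 90 and 0 of 40 immune- and endothelial-like cells, the latter count allowing a share of up to 7.50%. The most common number of members in a keratinocyte was 1, in 23.0% and 28.4% of cells. Keratinocytes with 7 of the genes made up 4.25% and 2.62%, and those with 8 made up 1.08% and 0.93%. At the threshold, 355 and 254 keratinocytes held 3 genes while 10.1% and 7.21% held 4. Too shallow for thinning, with fewer than 5000 UMIs, were 147 and 103 keratinocytes. Of the carriers, 99.0% and 99.7% held Tpm1, 99.5% and 100% Cald1, 83.7% and 88.8% Tpm2 and 81.3% and 83.5% Myl9. Tagln was held by 62.3% and 62.1% of them and Acta2 by 49.8% and 45.9%, so a carrier need not hold either gene.

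**Figure D2:**
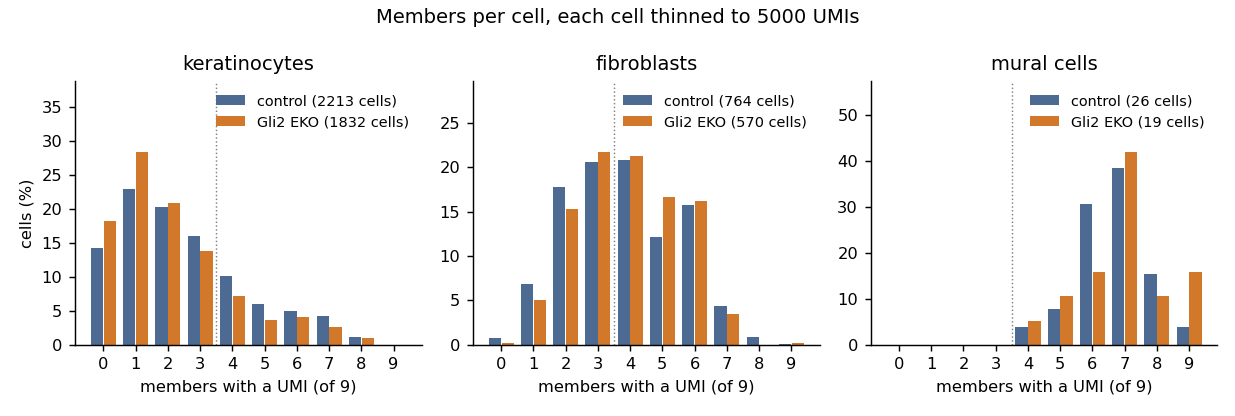
Percent of cells, on the vertical axis, by the number of the 9 contractile genes with a UMI after thinning to 5000 UMIs, in keratinocytes, fibroblast-like cells and mural-like cells of each library. The dotted line lies between 3 and 4 genes, and 26.4% of control and 18.6% of Gli2 EKO keratinocytes lie to its right, as do all mural-like cells that were deep enough.

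Carriers were found mainly in 3 of the 13 keratinocyte clusters, which held 477 of 584 control carriers (81.7%, 78.3 to 84.7%) and 293 of 340 Gli2 EKO carriers (86.2%, 82.0 to 89.7%) with 33.4% and 23.4% of the keratinocytes. Within them 64.5% and 68.3% of cells were carriers, and outside them 7.26% and 3.35%. In cluster 11, led by Tagln, Acta2, Flrt2, Adamts5 and Lhfp, 105 of 107 and 47 of 48 cells were carriers. In cluster 0, led by Spon1, Fndc1 and Sfrp1, 61.5% and 67.9% were. In cluster 3, led by histone and cell division genes such as H2ac8 and Cenpf, 54.9% and 60.0% were. None of these 3 clusters could be named from the markers, and those of the outer root sheath, the outer epithelial layer of the follicle, scored highest in cluster 0.

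The other clusters held fewer carriers. Cluster 6, led by Cst6 and Krt6a, held 27.6% of control cells and 16 of 100 Gli2 EKO cells as carriers, the cluster with outer root sheath and stem cell markers 12.7% and 8.3%, and the matrix/progenitor-like cluster 10.9% and 8.9%. In the interfollicular epidermis carriers were rare, with 2.2% and 3.3% of the basal-like cluster and 0.7% of control cells of the suprabasal-like cluster. Cluster 6 shows how the genes part company. It held Tpm1 at 1832 and 1382 CPM, but Acta2 at 64.6 and 14.9 CPM and Tagln at 75.0 and 13.6 CPM. The sebaceous gland-like cluster was low for all 3, with Tpm1 at 90.8 and 65.5 CPM.

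**Figure D3:**
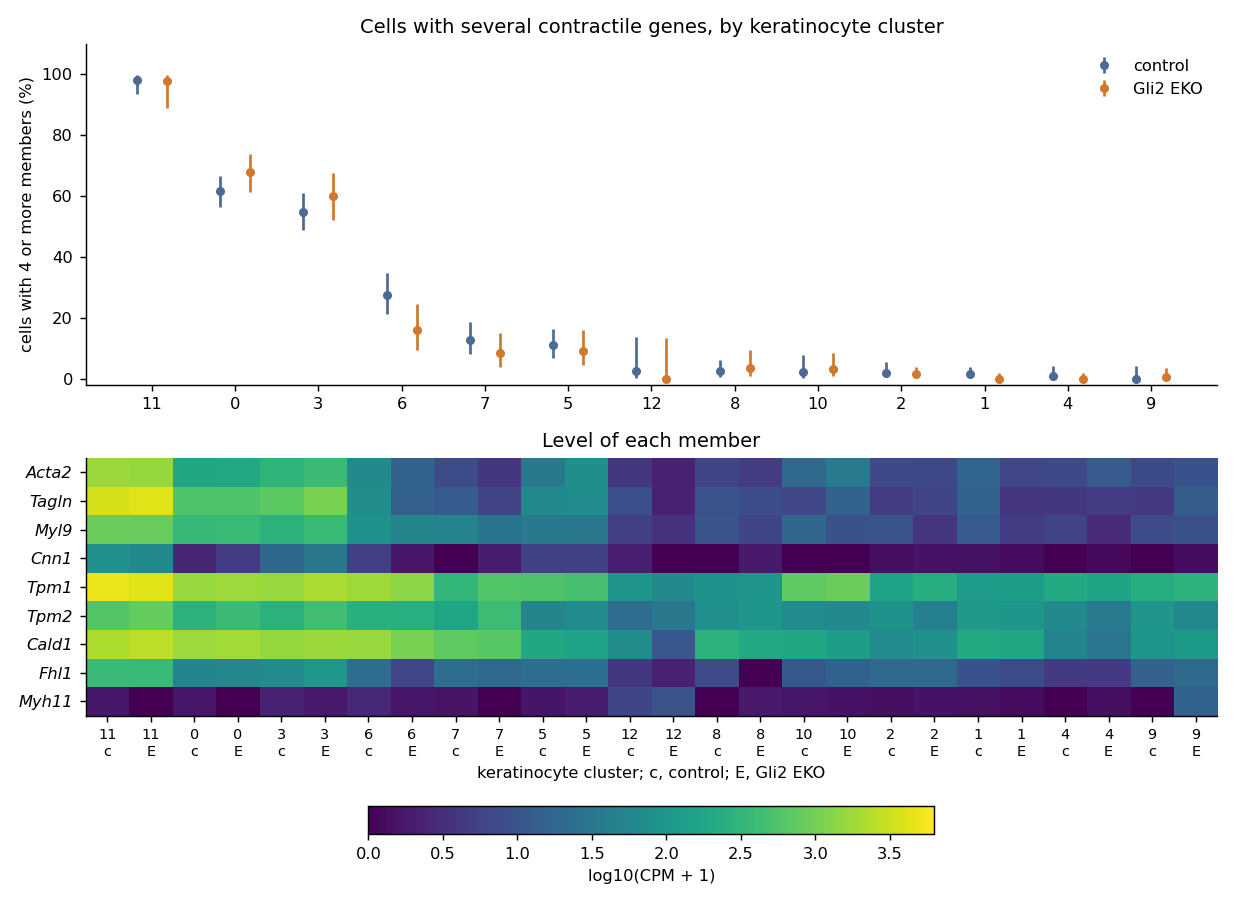
Top, percent of keratinocytes with UMIs of at least 4 of the 9 genes in each of the 13 clusters, with exact 95% binomial intervals, by library. Bottom, a heat map of log10(CPM + 1) of each gene by cluster and library. Clusters 11, 0 and 3 hold most carriers, and cluster 11 is the only cluster with more than 90% carriers in either library.

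The 3 clusters were chosen for their carriers, so their levels are given as a description. Acta2 stood there at 435 and 419 CPM, against 18.5 and 15.97 CPM in all other keratinocyte clusters, a 23.5-fold and 26.2-fold difference. Tagln stood at 1024 and 1167 CPM against 22.7 and 12.4 CPM, and Myl9 at 375 and 421 CPM against 23.6 and 10.8 CPM. Cnn1 stood at 19.3 and 22.6 CPM against 1.251 and 0.74 CPM. Tpm1 stood at 2074 and 2123 CPM against 434 and 358 CPM, Cald1 at 1710 and 1870 CPM against 342 and 193 CPM, and Fhl1 at 102 and 111 CPM against 13.3 and 11.7 CPM. Tpm2 differed least, with 319 and 450 CPM against 103.1 and 87.6 CPM. Of the 8 members with enough UMIs, 7 were at least 4-fold higher in these clusters in both libraries, where 1.80% of 12528 genes were, from which nothing is read because the members chose the clusters. Of all keratinocyte UMIs, the 3 clusters held 91.2% and 86.0% of those of Acta2 and 95.2% and 95.7% of those of Tagln, but 57.8% and 54.6% of those of Tpm2. Myh11 again stood apart, at 0.97 and 0.37 CPM inside and 0.69 and 2.65 CPM outside.

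In these 3 clusters several members stood above the mean level of all fibroblast-like cells. Tagln was 0.98 and 1.26 higher than in fibroblast-like cells on the log2 scale, Cnn1 2.37 and 2.65 higher, Fhl1 1.27 and 1.14 higher, Tpm1 0.52 and 1.05 higher and Cald1 0.64 and 0.80 higher. Myl9, at -0.13 and 0.05, and Tpm2, at 0.04 and 0.47, lay near the fibroblast-like level in the control library. Acta2 remained lower, at -1.25 and -0.71, as did Myh11. All fibroblast-like cells are a mixture. Their own cluster richest in Acta2, cluster 9, held more Tagln than the 3 keratinocyte clusters pooled, at 1432 and 1593 CPM. It also held more Tpm1, at 3715 and 3466 CPM, but less Fhl1, at 39.9 and 51.6 CPM. Keratinocyte cluster 11 alone held more Tagln than fibroblast cluster 9, at 3626 and 4171 CPM, and more Tpm1, at 4962 and 4084 CPM. Acta2, Myl9 and Myh11 were lower in keratinocyte cluster 11 than in fibroblast cluster 9 in both libraries, and Tpm2 in the control library only.

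Cluster 11, with 108 control and 50 Gli2 EKO keratinocytes, held the highest level of any keratinocyte cluster for each member but Myh11. Acta2 stood at 1715 and 1574 CPM, Tagln at 3626 and 4171 CPM, Cnn1 at 82.5 and 64.5 CPM, Tpm1 at 4962 and 4084 CPM and Fhl1 at 371 and 382 CPM. Tagln here was above the mural-like level by 0.82 and 0.15 on the log2 scale, and Fhl1 by 3.01 and 2.13, whereas Acta2 was below it by a log2 difference of -1.08 and -1.86. Myh11, by contrast, had 1 UMI in the 108 control cells and 0 UMIs in the 50 Gli2 EKO cells, a count that allows up to 5.53 CPM, where mural-like cells held 3666 CPM. These cells thus held smooth muscle actin, transgelin and calponin UMIs with almost no UMIs of the smooth muscle heavy chain.

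Cells within cluster 11 were not alike. In single control cells Acta2 ran from 0 through a median of 15.3 to 67.3 UMIs per 10000, and in Gli2 EKO cells from 0 through 9.19 to 68.0. Tagln ran from 0 through 32.7 to 151 in control cells and from 0 through 30.2 to 182 in Gli2 EKO cells. Acta2 was at 0 in 9 of 108 and 10 of 50 cells, and Tagln in 1 and 4. Tpm1 was found in every one of these cells, with a lowest value of 18.3 and 10.8 UMIs per 10000. In clusters 0 and 3 the median cell of either library had no Acta2 or Tagln UMI, and the highest cells reached 29.5 and 59.5 Acta2 UMIs per 10000 in the control library.

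Cluster 11 had epithelial genes, with lower levels of the keratins that define keratinocytes here. It held Krt5 at 1239 and 1810 CPM, against 4139 and 5510 CPM in all keratinocytes, and Krt14 at 683 and 1128 CPM, against 6006 and 9298 CPM. Krt15 stood at 1869 and 1760 CPM and Krt17 at 1771 and 2663 CPM. Trp63, a transcription factor of stratified epithelia, stood at 474 and 477 CPM, and the cell surface gene Epcam at 95.05 and 114 CPM. Lgr5, a receptor of follicle progenitors, stood at 575 and 540 CPM. Krt15, Krt17 and Lgr5 are on the list of 6 outer root sheath markers. Over that whole list the cluster scored -0.08 on the log2 scale against the mean over clusters, so these levels do not name it. The mesenchymal gene Vim stood at 29.5 and 18.4 CPM, against 4466 and 4714 CPM in fibroblast-like cells, the collagen gene Col1a1 at 30.2 and 27.6 CPM against 7813 and 6710 CPM, and the pericyte gene Rgs5 had 0 UMIs in both libraries. Other markers of the dermal lists were higher. The fibroblast marker Fbn1 stood at 92.8 and 24.0 CPM, against 2.50 and 1.98 CPM in keratinocytes with fewer than 4 of the genes and 784 and 577 CPM in fibroblast-like cells. The mural marker Cspg4 stood at 214 and 149 CPM, above the 141 and 111 CPM of mural-like cells. Ptch1, a target of the Hedgehog pathway whose signal Gli2 carries to the nucleus, stood at 506 and 166 CPM in the cluster.

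Keratin level and contractile genes did not rise together. Over all cells of the keratinocyte-like clusters, carriers made up 1.74% and 3.61% of cells with fewer than 5 Krt5 and Krt14 UMIs per 10000 and 7.80% and 4.52% of cells with 100 or more. Between these ends the share was higher, at 56.8% and 35.3% of cells with 15 to 20 and 37.3% and 43.8% of cells with 20 to 50. Acta2 stood at 10.4 and 15.1 CPM in cells with 100 or more, where Tpm1 still stood at 465 and 386 CPM. Just outside the threshold that defines keratinocytes here, with 5 to 10 per 10000, Acta2 stood at 159 and 24.3 CPM, and just inside it, with 10 to 15, at 479 and 108 CPM. With a threshold of 50 per 10000, carriers were 14.1% and 8.63% of keratinocytes and cells with both Acta2 and Tagln were 1.06% and 1.02%.

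**Figure D4:**
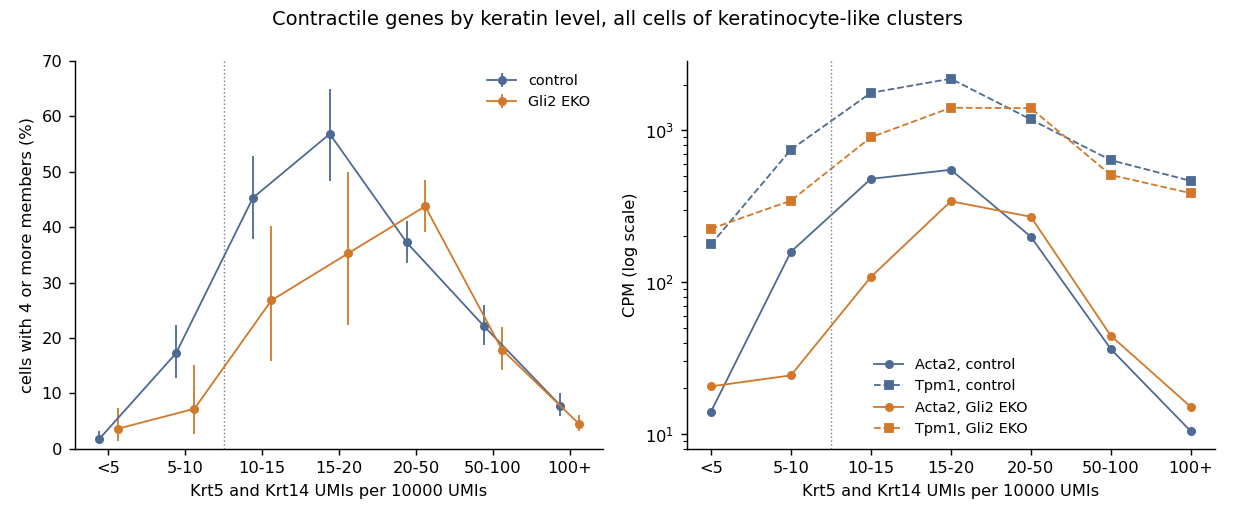
Left, percent of cells with at least 4 of the 9 genes by Krt5 and Krt14 UMIs per 10000, in all cells of the keratinocyte-like clusters of each library. Right, Acta2 and Tpm1 CPM on a log axis in the same bins, with the threshold of 10 per 10000 as a dotted line. In both libraries carriers are rarest in the lowest and highest bins, and Acta2 is lower in the highest bin than in the bins between 10 and 50.

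Dermal markers were compared between carriers and the other keratinocytes. The summed fibroblast list was lower in carriers, at 267 against 384 CPM in the control library and 140 against 294 CPM in the Gli2 EKO library, but this rested on Dcn, which also leads the matrix/progenitor-like cluster. Dcn stood at 38.7 against 259 CPM and 24.8 against 204 CPM. Without it the other 7 genes summed to 228 against 125 CPM and 115 against 89.8 CPM, higher in carriers, and 6 and 5 of the 7 were higher there, among them Col1a1, at 70.7 against 36.7 CPM and 31.4 against 24.0 CPM, and Fbn1, at 27.4 against 2.50 CPM and 7.34 against 1.98 CPM. The summed mural list was higher, at 154 against 52.0 CPM and 119 against 47.2 CPM, and most of that came from Cspg4, at 138 against 28.2 CPM and 104 against 18.4 CPM. Without Cspg4 the list summed to 15.7 against 23.8 CPM and 14.7 against 28.8 CPM. Cspg4 stood at 141 and 111 CPM in mural-like cells. Among cells of the 3 carrier clusters alone, Col1a1 stood at 38.3 CPM in control carriers against 33.1 CPM in the other control cells. In the Gli2 EKO library it stood at 31.4 against 24.1 CPM. The fibroblast list, Dcn included, stood in these clusters at 170 against 147 CPM and 133 against 135 CPM. The mural list stood in them at 169 against 109 CPM and 118 against 81.6 CPM. Abcc9, Higd1b and Vtn were at 0 in control carriers and Kcnj8, Abcc9 and Vtn in Gli2 EKO carriers, while Rgs5 had 6 and 13 UMIs there against 2230 and 925 in the mural-like cells, and 12 of the 13 came from 1 cell rich in Myh11 that is described with the genotypes. Carriers without a UMI of Col1a1, Col1a2, Col3a1, Rgs5 or Pdgfrb numbered 155 (26.5%) and 117 (34.4%), against 24.8% and 33.8% of the other keratinocytes. The median doublet score was 0.023 in control carriers and 0.024 in the other control keratinocytes, and 0.024 and 0.027 in the Gli2 EKO library. Carriers had a median of 12561 and 11690 UMIs per cell, fewer than the 13701 and 14211 of the other keratinocytes. What part RNA from dermal cells has in the carriers' counts was not tested beyond these values.

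Other genes of the same machinery were compared between carriers and the remaining keratinocytes, with at least 2-fold higher or lower in both libraries as the call. Most carriers lay in the 3 carrier clusters and most of the remaining keratinocytes outside them, so the sets also differ in their clusters. No comparison within clusters is given for these genes. Of 12481 genes 5.60% were higher and 6.63% lower by this rule, and the members themselves, 8 of 8, were higher because they define the carriers. Of 13 other smooth muscle genes 6 could be tested, and 2 were higher. Smtn, the actin-binding protein smoothelin, stood at 156 against 27.6 CPM and 137 against 16.5 CPM, and the calponin Cnn2 at 189 against 93.9 CPM and 216 against 104 CPM. Synpo2, at 6.52 against 21.7 CPM and 2.29 against 9.40 CPM, was lower. Mylk, the kinase that activates smooth muscle myosin, stood at 6.27 against 3.07 CPM in the control library, where mural-like cells held 2821 CPM. Myocd, the smooth muscle cofactor of SRF, had 0 UMIs in control carriers and 3 in Gli2 EKO carriers.

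Among the non-muscle relatives of the members, 6 of 13 were higher in carriers and none of the 13 was lower. The myosin light chains Myl6, at 2485 against 971 CPM in the control library, and Myl12a, at 1033 against 449 CPM, were among them. So were the non-muscle heavy chains Myh9, at 745 against 291 CPM, and Myh10, at 53.2 against 13.3 CPM, as well as Cnn3 and Fhl2. Among SRF, its cofactors and its targets 7 of 12 were higher, with Zyx, which sits at focal adhesions, at 247 against 37.8 CPM, Pdlim7 at 153 against 31.1 CPM and the cofactor Mrtfa at 177 against 75.6 CPM. Srf itself, at 21.3 against 17.7 CPM, was not called, and Ccn1, a secreted target, was lower at 122 against 298 CPM. Ccn1 is also a leading gene of the interfollicular basal-like cluster, where carriers were rare. Of 4 tested Hedgehog targets Gli1 was higher, at 40.3 against 16.2 CPM and 24.8 against 10.9 CPM, while Ptch1, at 304 against 116 CPM and 181 against 106 CPM, missed the call in the Gli2 EKO library. Of 7 genes of transforming growth factor beta signalling none was higher and Tgfb2 and Tgfbi were lower, the latter at 8.97 against 89.5 CPM in the control library. The median log2 difference was 4.29 over the members, 0.51 over the other smooth muscle genes, 1.00 over the non-muscle relatives, 1.24 over the SRF list, 0.77 over the Hedgehog list and -0.21 over the TGF-beta list, against 0.04 over all genes. Of 8 genes of the skeletal and cardiac sarcomere 1 had enough UMIs and it was not called.

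The genes whose level over the 13 clusters in both libraries (26 values that share cells and depth) was most like that of Acta2 were, outside the members, the keratin Krt19 (r = 0.96), Flrt2 (0.96), Med12l (0.95), Tmem88 (0.95), Foxe1 (0.95), Ckb, Ggact, Cyp2s1, Anxa3 and Gm12446. Of the members Tagln was nearest (0.98), followed by Myl9 and Fhl1 (both 0.93), Cnn1 (0.90) and Tpm1 (0.86), and Cald1 (0.75) and Tpm2 (0.74) were the least alike. Tpm1 had other neighbours, led by Efna5 and Wdr1 (both 0.95), Zyx (0.93), Jag1 (0.93) and Actb. Krt19 stood at 31.4 CPM in the 3 clusters of the control library, 2.20 CPM in its other keratinocyte clusters and 1.11 CPM in its fibroblast-like cells.

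In the dermis the genes were just as unevenly held. Fibroblast cluster 9, led by Ednrb, Acta2, Actg2, Tnmd and Acan, was 22.1% and 15.5% of the fibroblast-like cells and held 91.8% and 91.3% of their Acta2 UMIs, at 3350 and 3303 CPM. It held 78.4% and 61.9% of the Tagln UMIs and 72.6% and 64.0% of those of Tpm1. Cald1 was spread more widely, with 44.8% and 30.2% in that cluster, and Fhl1 with 26.9% and 19.3% was not concentrated there. Cluster 8, led by Prlr, Rspo2 and Corin, held Acta2 at 12.3 and 31.5 CPM, below the other fibroblast clusters.

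Between the genotypes, 8 of the 9 genes were lower in Gli2 EKO keratinocytes as a whole, yet Acta2 alone by at least 1.5-fold. Its log2 difference (Gli2 EKO over control) was -0.66 (-0.73 to -0.59), and 9.69% of 14802 genes were lower by as much. Cald1 stood at -0.58, Myl9 at -0.57, Tagln at -0.51, Cnn1 at -0.47 (-0.79 to -0.16), Tpm1 at -0.44, Fhl1 at -0.40 and Tpm2 at -0.11. The median over all genes was -0.12 and over the members -0.47. Rescaling by that median shift left Acta2 at -0.54, short of the call, and turned Tpm2 to 0.01. Myh11 was the 1 member higher by at least 1.5-fold, at 1.51, where 3.64% of genes were. This rested on 1 cell. That cell, in cluster 9 of the keratinocytes, held 43 of the 63 Myh11 UMIs together with 12 of Rgs5 and 11 of Des, a muscle filament gene, and 147 Krt5 and Krt14 UMIs per 10000. Another Gli2 EKO keratinocyte held 1802 UMIs of the skeletal actin Acta1 and 332 of Tpm1. Without these 2 cells Myh11 stood at -0.14 (-1.06 to 0.76) and Tpm2 at -0.18, and Acta2 remained at -0.66.

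The 3 carrier clusters were a smaller share of keratinocytes in the Gli2 EKO library, 23.4% against 32.6% of those above the Krt5 and Krt14 threshold. That threshold kept 1935 of 2307 Gli2 EKO and 2360 of 3320 control cells of keratinocyte-like clusters, so these shares depend on it. Within the 3 clusters the 8 tested members lay near 0 or above it, and Myh11, with 10 control and 2 Gli2 EKO UMIs, had too few to test. Acta2 differed there by -0.05 (-0.13 to 0.02), Tpm1 by 0.03, Cald1 and Fhl1 by 0.13, Myl9 by 0.17, Tagln by 0.19, Cnn1 by 0.23 and Tpm2 by 0.50. None of the 8 tested members reached 1.5-fold, where 5.23% of 11341 genes were lower and 2.26% higher by as much, and the members' median was 0.15 against -0.05 over all genes. The clusters differed among themselves. In cluster 3 Tagln stood at 0.65 and Acta2 at 0.40, and in cluster 11 Tagln stood at 0.20, Acta2 at -0.12 and Tpm1 at -0.28. When the Gli2 EKO clusters were weighted to the control shares, all 8 members that were lower in all keratinocytes changed sign. Acta2 then stood at 0.074, Tagln at 0.28, Myl9 at 0.13, Cnn1 at 0.25, Tpm1 at 0.029, Tpm2 at 0.37, Cald1 at 0.0013 and Fhl1 at 0.15. Among cells with at least 50 Krt5 and Krt14 UMIs per 10000, a threshold that removes cluster 11 but for 2.0% of its Gli2 EKO cells, Acta2 stood at 0.16 and Tagln at 0.13, while Myl9, Tpm1, Tpm2, Cald1 and Fhl1 remained lower. Outside the 3 clusters Myl9 stood at -1.12, Tagln at -0.88 and Cald1 at -0.83, and Acta2 at -0.21. The groups are 1 library each, and whether another pair of libraries would hold the same cluster shares was not tested.

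In fibroblast-like cells, Acta2 stood at -0.60 (-0.65 to -0.55) and Myh11 at -0.62 (-1.43 to 0.15). The 48 control and 21 Gli2 EKO UMIs of Myh11 do not set its direction. Acta2 and Myh11 were the 2 members lower by at least 1.5-fold, where 4.47% of 12302 genes were lower and 3.02% higher by as much. No member was higher by that fold. Tpm1 stood at -0.50, while Tagln (-0.09), Cnn1 (-0.05), Cald1 (-0.03), Myl9 (-0.01) and Tpm2 (0.07) lay near 0, as did the median of the members, -0.05, and of all genes, -0.01. Within fibroblast cluster 9 Acta2 differed by -0.02 and Tpm1 by -0.10, and that cluster was the smaller share of fibroblast-like cells in the Gli2 EKO library given above. The other fibroblast clusters did differ in Acta2, by -0.88 in cluster 4, -0.96 in cluster 11 and 1.36 in cluster 8. The value of cluster 8 rests on 20 and 33 UMIs. Tpm1 differed in the same clusters by -0.42, -0.16 and -0.29. The 26 and 20 mural-like cells stood at 0.65 for Acta2, 0.87 for Tagln, 0.61 for Myl9 and -0.09 for Myh11, with too few cells to weigh against each other.

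**Figure D5:**
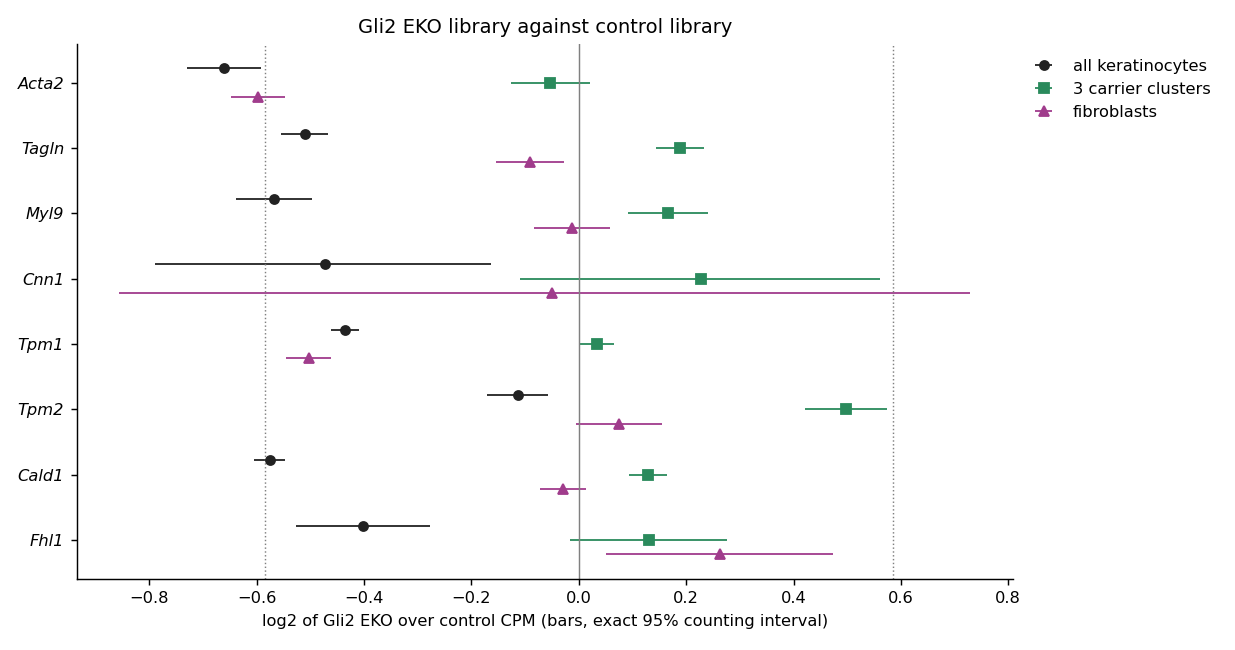
Log2 of Gli2 EKO over control CPM, on the horizontal axis, for 8 of the genes (Myh11 is left out because 1 cell set its value), in all keratinocytes, the 3 carrier clusters and fibroblast-like cells, with exact 95% counting intervals and dotted lines at 1.5-fold. All 8 genes lie below 0 in all keratinocytes, and within the 3 carrier clusters Acta2, at -0.05, is the 1 gene below 0. The intervals hold counting error of 1 library per genotype.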

How the data were processed

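The deposited matrices hold counts of UMIs per gene and cell, made by the authors with Cell Ranger 9.0.1 against GRCm39 (submitters' processing notes) from a 10x 3′ assay. The filtered matrix of each library was kept to cells with over 1000 and under 8000 genes and under 15% mitochondrial UMIs, and the 8% of cells with the highest Scrublet score per library (scanpy 1.11.5) were removed as doublets; the study's own doublet caller was not run. Cells were clustered in Seurat 5.3.0 (R 4.3.3) with 2000 variable genes, contractile genes excluded, 20 components, a re-implementation of Harmony and the multilevel Louvain method (resolution 0.5).

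Per library, the UMIs of each class were added up and expressed relative to the class total (CPM). Intervals are exact Poisson, conditional binomial or Clopper-Pearson intervals at 95%. Genes needed 50 UMIs to be compared. Shares of cells used 1 random thinning to 5000 UMIs. Calculations used Python 3.11.15, numpy 2.4.6, pandas 2.3.3 and scipy 1.17.1, and were tested on simulated data. Genes named are the members, the fixed lists and markers, the genes nearest in profile to Acta2 (10) and Tpm1 (5), and the leading genes of clusters.

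The members and lists were chosen with earlier results of these data known. A cluster of all cells took a class when, on average over that class's markers, more than 0.4 of the cluster's cells held one and no other class came within 0.1 of it above that level, limits set after seeing the data, as was the choice of the 3 clusters with most carriers. The leading genes of clusters other than 11 were named after their values were seen. 1 gene list is not reported here.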

Additional observations from a re-analysis of the deposited data

Results flagged for a closer look

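The Gli2 EKO library differed from the control library in opposite directions for Fhl1 in its main cell classes. Its log2 difference was -0.40 in keratinocytes and 0.26 in fibroblast-like cells, and the intervals of both, which cover counting error, lay on 1 side of 0. Within the 3 carrier clusters it was 0.13 (-0.02 to 0.28), and in the other keratinocyte clusters -0.19 (-0.43 to 0.05). With the Gli2 EKO clusters weighted to control shares it was 0.15, so the sign in keratinocytes depends on the cluster shares. The contrast between keratinocytes and fibroblast-like cells was not tested, since each genotype is 1 library.

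A cluster that could not be named, with markers of fibroblasts and of Schwann cells together, held 42 control and 7 Gli2 EKO cells and entered none of the comparisons. All 9 genes were found in it. In its control cells Acta2 stood at 898 CPM, Tagln at 502 CPM, Myl9 at 456 CPM, Cnn1 at 62.6 CPM, Tpm1 at 1017 CPM, Tpm2 at 315 CPM, Cald1 at 866 CPM, Fhl1 at 42.4 CPM and Myh11 at 174 CPM. In these control cells Myh11 and Cnn1 were above their level in control fibroblast-like cells (4.84 and 3.73 CPM) and below that in control mural-like cells (3894 and 164 CPM). In the 7 Gli2 EKO cells Acta2 stood at 4841 CPM and Cnn1 at 334 CPM, from 275 and 19 UMIs, and that Cnn1 level was above the 198 CPM of Gli2 EKO mural-like cells.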

How the results depend on the processing

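The values that answer a comparison are counts and shares, which have no sign to reverse. Of these, 55 stayed within their limits and 35 moved. For single genes 42 values stayed, 33 moved and 2 reversed, and 65 of 77 kept their sign. The 2 that reversed were those of Acta2, the 1 member called lower in Gli2 EKO keratinocytes, at 0.074 with the Gli2 EKO clusters weighted to control shares and 0.16 at 50 or more Krt5 and Krt14 UMIs per 10000. With weighted clusters all 8 lower members changed sign, at 50 or more Tagln did too (0.13), and Tpm2 did over all cells of the keratinocyte-like clusters (0.060) and with median of ratios scaling (0.0090). The number of members at least 1.5-fold higher in Gli2 EKO keratinocytes fell to 0 with 200 UMIs required, 0 among keratinocytes without a dermal UMI and 0 without the 2 cells rich in Myh11 and Acta1, an alternative chosen after seeing the data. The number at least 1.5-fold lower was 0 with weighted clusters, 0 with median of ratios scaling, 2 without a dermal UMI and 2 at the threshold of 50 per 10000, where 3 members were at least 4-fold below fibroblast-like cells.

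The share of carriers in the 3 clusters with most of them (control, then Gli2 EKO) was 91.9% and 90.9% at the threshold of 50 (cells clustered anew and other clusters, since 0% and 2.0% of cluster 11 pass it), 77.3% and 80.0% with the contractile genes allowed among the variable genes, and 74.3% and 78.2% at resolution 1.0. The share of carriers was 21.3% and 16.7% over all cells of the keratinocyte-like clusters, 14.1% and 8.63% at the threshold of 50, 39.4% and 28.5% without thinning and 14.8% and 11.1% at 2000 UMIs. It was 42.4% and 32.4% with 3 genes as the limit, 16.3% and 11.4% with 5, and 11.4% and 7.37% with at least 2 of Acta2, Tagln, Cnn1 and Myh11. The share with Acta2 and Tagln was 9.39% and 6.26% over all cells of the keratinocyte-like clusters and 1.06% and 1.02% at the threshold of 50. It was 13.9% and 8.22% without thinning and 7.42% and 4.41% at 2000 UMIs. The control share was above the Gli2 EKO share under each of these settings for carriers.

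No paired analysis was possible because each genotype is 1 library, and no replicate could be left out. Depth limits Cnn1 and Myh11 most, with 24 and 21 UMIs in the Gli2 EKO fibroblast-like cells, and the mural-like class, with 26 and 20 cells. Names of classes were rebuilt from the counts and may hold other cells than those of the study.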
